A study of Mus musculus with 6 samples.

Results

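Sulfated glycosaminoglycans are long sugar chains carried by proteoglycans such as aggrecan and the glypicans. The 43 genes described here encode enzymes and transporters that build and sulfate these chains, and they were taken by name from the array's own gene annotation, out of 35080 names on the array. They comprise 5 enzymes of the linker, 15 of chondroitin and dermatan sulfate, 14 of heparan sulfate, and 9 genes that supply activated sulfate and sugars. All 43 had at least 1 probe, 59 probes in all, and 40 of the 43 had enough signal to be tested.

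Synthesis starts in the Golgi, where xylose and a short linker of galactose and glucuronic acid are added to a serine of the core protein. From there chains of alternating sugars are polymerised into either chondroitin sulfate, the main chain of aggrecan in cartilage, or heparan sulfate, which binds growth factors at the cell surface. Sulfotransferases then modify set positions with sulfate from PAPS, the activated sulfate donor, and inherited defects in several of these genes cause chondrodysplasias in humans and mice.

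RNA came from the intermediate and the outer interzone, the layers of the condensed band that marks a future joint, of mouse embryos at 15.5 days of gestation. The outer layers lie next to the cartilage template and the intermediate layer lies between them. Each group had 3 samples and each replicate was 1 embryo, with no treatment or genetic change named. Strain, joint and the way the layers were separated are not given in the sources used here, so the share of neighbouring tissue in a sample is not known. The 6 arrays were Agilent one-colour arrays, and a level is the log2 of a probe's processed signal relative to its array's 75th percentile. The signal of a probe depends on its sequence, so levels are compared between samples and not between genes. In bulk tissue, fewer cells of a type and less RNA per cell cannot be told apart.

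The 75th percentile of signal ranged from 144 to 344 on the intermediate arrays and from 47.4 to 290 on the outer arrays, and the dimmest array was outer replicate 1. The interzone marker Gdf5 averaged 5.69 ± 0.89 (SD, n = 3) on intermediate and 5.69 ± 1.07 on outer arrays. It is 1 of 8 interzone markers tested, of which limma called 2 higher and 1 lower in the outer layer. Wnt4 and Erg lay 3.41 and 0.95 higher (limma adjusted p = 0.011 and 0.0417), and Gdf6 differed by -1.77 (limma adjusted p = 0.0167). Of 13 cartilage markers, all had a difference above 0 and limma called 12 higher in the outer layer, with a summed level of 9.38 to 9.87 on the outer and 6.27 to 7.18 on the intermediate arrays. All 12 leukocyte markers had lower means in the outer layer and 11 were called (summed level 3.14 to 4.72 against 6.43 to 7.26). Of 10 endothelial markers 9 had lower means in the outer layer and 7 of them were called (5.76 to 6.27 against 6.57 to 6.83), while the tenth, Kdr, lay 0.82 higher in the outer layer (limma adjusted p = 0.231). None of the tested markers of muscle, red cells and epidermis (7, 3 and 2 genes) was called, with 0 of them at an unadjusted limma p under 0.05. The summed muscle level was 2.65 to 6.01 on the intermediate arrays and -0.12, 4.59 and 4.96 on outer replicates 1, 2 and 3. That of red cells was 8.75 to 9.86 against 5.68, 9.04 and 9.19, and that of epidermis -0.99 to 1.74 against -1.04, -0.0081 and 1.42. Of the muscle and red cell genes 0 had a difference above 0, with median SEs of 1.23 and 0.97. The missing calls thus do not show equal content.

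Most of the glycosaminoglycan machinery did not pass the test for a difference between the layers, and 3 members did. The glycosyltransferase gene Extl1 and the PAPS synthase gene Papss2 were higher in the outer interzone, and the chondroitin 6-O-sulfotransferase gene Chst7 was higher in the intermediate interzone. Extl1 entered the test through the outer arrays alone, since it was above background on none of the intermediate arrays. These 3 are 7.5% of the 40 tested members, and over all 18003 genes tested limma called 4.05% at an adjusted p of 0.05 (1.57% towards the outer layer, 2.48% towards the intermediate layer). Of those 729 calls, 282 were towards the outer and 447 towards the intermediate layer, a split that became 158 and 937 on values scaled to each array's median. With the replicate number as a block, 1636 genes and 4 members were called. The median difference, outer minus intermediate, was 0.13 over the members and 0.10 over all genes. The 95% interval of the difference lay within -1 to 1, a change of less than 2-fold either way, for 27 of the 40 members (67.5%) and for 60.4% of all genes. The groups did not overlap for 11 members (27.5%), against 27.1% of all genes, and 9 members had an unadjusted p under 0.05, against 21.1% of all genes. A difference of at least 1 in either direction was seen for 4 members (10%), Extl1, Papss2, Chst7 and Hs6st2, against 9.85% of all genes.

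**Figure D1:**
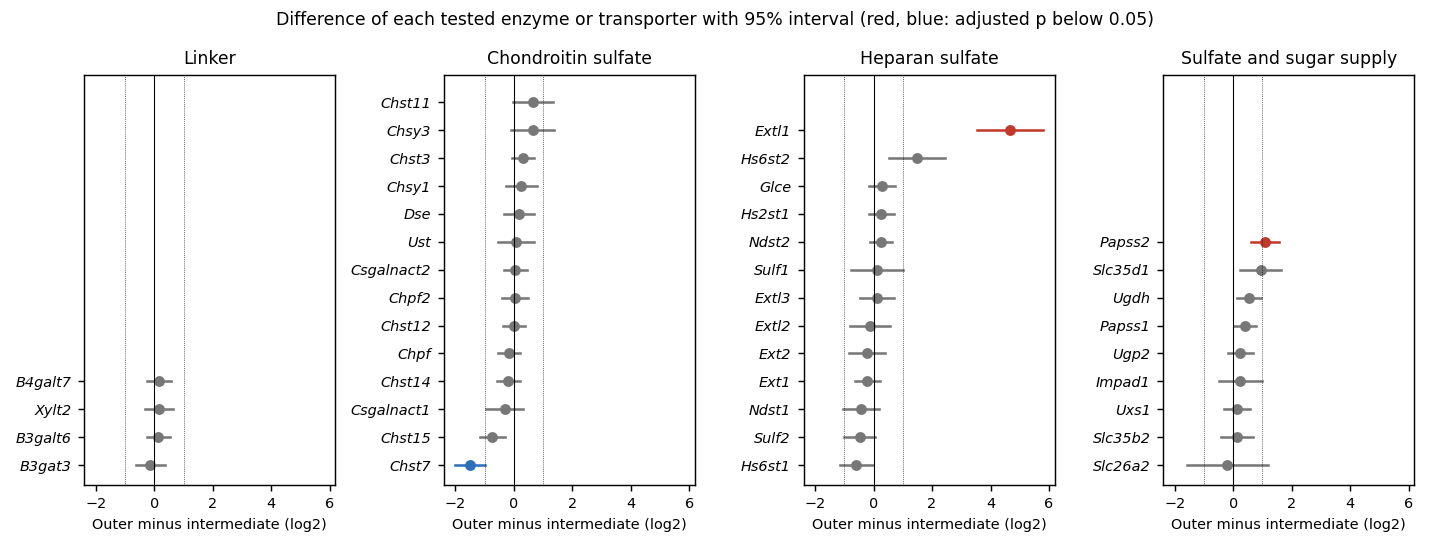
Difference in log2 signal, outer minus intermediate interzone, of the 40 tested members in their 4 steps, with 95% intervals from limma; dotted lines mark -1 and 1. Extl1 (4.67, fitted against intermediate values below background) and Papss2 (1.09) in red and Chst7 (-1.50) in blue passed at an adjusted p of 0.05, and the other 37 in grey did not.

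Promoter sequence was read for the 3 genes that passed, as the 250 bases before each start in RefSeq's annotation of build GRCm38.p6, which differs from the mm9 build of the probes. The RefSeq table held 34 of the 43 members. The windows below are written 5′ to 3′ on the strand of the gene, and capitals mark matches on either strand to any of 5 motifs. These were AACAAT (the core of SOX sites), GGGCGG (a GC box), CCAAT (bound by the factor NF-Y), TATAAA (found in some core promoters) and GACCACCCA (a GLI site), and no capitals of different motifs overlap in these windows.
Extl1, chr4:134372548-134372797, minus strand: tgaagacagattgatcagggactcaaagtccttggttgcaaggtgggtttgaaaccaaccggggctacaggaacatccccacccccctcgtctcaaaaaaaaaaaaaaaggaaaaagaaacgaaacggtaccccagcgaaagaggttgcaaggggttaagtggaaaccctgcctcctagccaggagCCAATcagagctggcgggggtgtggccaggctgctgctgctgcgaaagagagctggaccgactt
Papss2, upstream start, chr19:32595465-32595714, plus strand: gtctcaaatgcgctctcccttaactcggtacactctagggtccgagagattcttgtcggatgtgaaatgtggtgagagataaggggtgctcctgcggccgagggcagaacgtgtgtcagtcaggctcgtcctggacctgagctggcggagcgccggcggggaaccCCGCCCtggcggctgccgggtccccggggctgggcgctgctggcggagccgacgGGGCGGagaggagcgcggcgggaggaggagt
Papss2, downstream start, chr19:32619755-32620004, plus strand: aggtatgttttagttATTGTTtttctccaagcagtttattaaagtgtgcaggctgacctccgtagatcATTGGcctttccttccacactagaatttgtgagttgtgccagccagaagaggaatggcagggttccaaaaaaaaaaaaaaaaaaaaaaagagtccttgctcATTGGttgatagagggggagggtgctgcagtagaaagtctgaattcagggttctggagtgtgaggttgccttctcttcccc
Chst7, chrX:20059320-20059569, plus strand: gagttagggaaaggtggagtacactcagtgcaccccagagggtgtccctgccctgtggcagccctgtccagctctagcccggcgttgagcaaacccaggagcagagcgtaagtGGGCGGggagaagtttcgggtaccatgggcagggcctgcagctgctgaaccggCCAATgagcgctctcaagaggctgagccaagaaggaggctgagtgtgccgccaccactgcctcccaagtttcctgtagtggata

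The starts differ in composition, with 67.6% G and C in the upstream Papss2 window and 43.2% in the downstream window, against 53.2% over all 32851 windows in the table. The Extl1 and Chst7 windows held 53.2% and 61.2%. The upstream Papss2 window has 2 GC boxes, and the downstream window has a SOX core match 235 to 230 bases before the start and 2 CCAAT matches. Extl1 has a CCAAT match 64 to 60 bases before its start, and Chst7 has a GC box and a CCAAT match. The SOX core letters occur in 9.42% of all windows and in 2 of the 43 windows of members, the GC box in 32.7% and 27, CCAAT in 33.8% and 16, TATAAA in 12.4% and 2, and the GLI letters in 0.225% and 0. A match here is a description of the letters. The Papss2 probe lies at chr19:32741618-32741677 of mm9, and its signal was not assigned to either start.

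The 5 linker enzymes make the part that chondroitin and heparan sulfate share. Of the 4 tested, none was called, with 0 of them at an unadjusted limma p under 0.05, and their differences spanned only -0.13 to 0.16. Xylt2, a xylosyltransferase that starts the chain, stood at 2.94, 3.43 and 3.13 on the intermediate arrays of replicates 1, 2 and 3 and at 3.12, 3.54 and 3.32 on the outer arrays. The 2 groups interleave, and replicate 2 was the highest of each. Its difference was 0.16 with a 95% interval of -0.32 to 0.64 (limma adjusted p = 0.696).

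The galactosyltransferase gene B4galt7, whose product adds the first galactose of the linker, differed by 0.16 (95% interval -0.26 to 0.58). B3galt6, which adds the next galactose, differed by 0.13 (-0.26 to 0.52), and B3gat3, which adds the closing glucuronic acid, by -0.13 (-0.63 to 0.37). In this scaling all 4 linker intervals thus exclude a 2-fold change in either direction. On values scaled to each array's median B3gat3 differed by -0.52 with SE 0.27, so the exclusion is not claimed there. The other xylosyltransferase gene, Xylt1, was well above background on 1 intermediate and 2 outer arrays and was not tested.

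The genes of chondroitin sulfate polymerisation did not pass either. Chpf, the chondroitin polymerizing factor, stood at 5.66, 5.54 and 5.39 on the intermediate and 5.38, 5.43 and 5.27 on the outer arrays. The groups overlap narrowly, and the difference was -0.17 (95% interval -0.55 to 0.21, limma adjusted p = 0.582). Chsy1, a chondroitin synthase that adds both sugars of the repeat, differed by 0.26 (-0.28 to 0.79), and its relative Chpf2 by 0.04 (-0.40 to 0.48).

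The chain-starting N-acetylgalactosaminyltransferase genes Csgalnact1 and Csgalnact2 differed by -0.31 and 0.05. Chsy3, another synthase, had the largest difference of this group at 0.64 (95% interval -0.09 to 1.36, limma adjusted p = 0.288). Its intermediate values were -0.92, -1.74 and -1.97 and its outer values -0.59, -1.12 and -0.9999, so the intermediate replicate 1 array reached into the outer range. Of the 6 polymerisation genes, each read from its brightest tested probe, only Chsy3 had an interval that reached beyond 1. In the fit over probes, a dimmer Chpf2 probe also did so, at 0.79 (95% interval 0.27 to 1.30). The third Chpf2 probe went the other way, at -0.38.

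Among the genes for sulfation of chondroitin, 1 was called. Chst7, a 6-O-sulfotransferase acting on N-acetylgalactosamine, stood at 0.56, 0.13 and 0.78 on the intermediate arrays and at -0.91, -0.93 and -1.17 on the outer arrays. All 3 intermediate arrays were above all 3 outer arrays, by more than the spread within either group. The intermediate level was 0.49 ± 0.33 (SD, n = 3) and the outer level -1.002 ± 0.14, a difference of -1.50 with SE 0.22. Chst7 was thus 2.82-fold higher in the intermediate layer, at a limma adjusted p of 0.0182. Its probe maps to chrX:19674422-19674481 of mm9.

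The drop in Chst7 went with the leukocyte and endothelial marker lists, whose summed levels were lower on every outer array, and the part of those cells in it was not tested. The slide that held both groups has 1 outer array, the dim outer replicate 1, so a fit with slide as a block and a fit within that slide both compare this array with the 3 intermediate arrays and assume that it varies like the others. The difference of Chst7 was -1.40 in both (limma adjusted p = 0.0502 and 0.0596), close to -1.50, and a p from 1 outer array says little about its stability. It also lost the call without intermediate replicate 1 or 3 or outer replicate 3 (limma adjusted p = 0.0724, 0.0823 and 0.0753).

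Chst3, the other chondroitin 6-O-sulfotransferase, did not pass and lay on the other side of 0. It stood at 1.37, 1.34 and 1.62 on the intermediate and 1.76, 1.69 and 1.81 on the outer arrays. The groups do not overlap, but the gap is small, with a difference of 0.31 (95% interval -0.08 to 0.70, limma adjusted p = 0.33). Chst15, which adds a further sulfate at position 6 of 4-sulfated N-acetylgalactosamine, stood at -0.11, -0.44 and -0.16 against -1.16, -0.98 and -0.78. Its groups do not overlap, and the difference of -0.74 (SE 0.19) missed the threshold at a limma adjusted p of 0.08105. It was called on values scaled to each array's median, at -1.13 (limma adjusted p = 0.0426).

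The 4-O-sulfotransferase gene Chst11, which cartilage needs for its main chondroitin form, stood at -0.85, -1.63 and -0.72 on the intermediate and -0.74, -0.37 and -0.16 on the outer arrays. Intermediate replicate 3 and outer replicate 1 overlap, and the difference of 0.64 had an interval of -0.04 to 1.33 (limma adjusted p = 0.261). Chst12, with the same activity, differed by -0.01 (-0.38 to 0.37). Chst13, the other 4-O-sulfotransferase, was above background on 0 of 6 arrays. The dermatan sulfate genes Chst14, Dse and Ust, for a 4-O-sulfotransferase, an epimerase and a uronyl 2-O-sulfotransferase, differed by -0.19, 0.17 and 0.07, with all of their 95% intervals within -1 to 1.

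**Figure D2:**
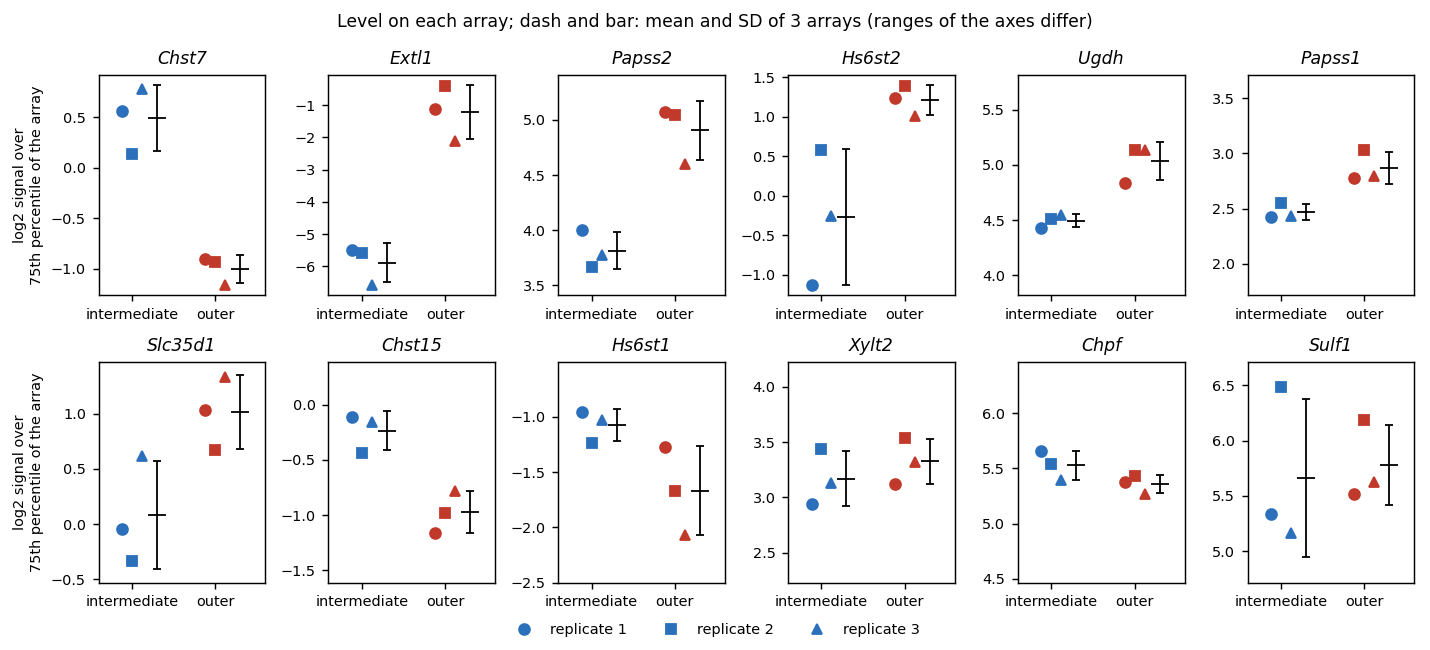
Level of 12 members on each of the 6 arrays, as log2 signal over the array's 75th percentile, with symbols for the replicate numbers and the mean and SD of 3 arrays beside each group. The outer arrays of Extl1, Papss2 and Hs6st2 lie above all intermediate arrays and those of Chst7 below, while Sulf1, Xylt2 and Chpf overlap.

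Among heparan sulfate genes, Extl1 stood apart. Its product is a glycosyltransferase of the exostosin family that adds N-acetylglucosamine to heparan chains. On the outer arrays Extl1 stood at -1.13, -0.41 and -2.10, well above background on all 3. On the intermediate arrays it was at -5.48, -5.59 and -6.59 and not well above background on any. The outer mean of -1.21 ± 0.85 (SD, n = 3) was 8.68-fold above the mean of the dimmest signals well above background on the intermediate arrays. The fitted difference of 4.67 (SE 0.48, limma adjusted p = 0.00818) uses intermediate values below background, so its size is not measured. The gene could be tested only because its outer arrays were above background. The probe maps to chr4:133912503-133912562 of mm9.

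The 8.68-fold takes, for each intermediate array, the dimmest probe well above background, or Extl1's own value where that is higher. Such a level is no detection limit. Xylt1 lay above it on every intermediate array and was well above background on only 1. The 8.68-fold is thus no strict lower bound. On the log2 scale it is 3.12. With normexp background correction, which adds an offset to every signal, and quantile normalization, the difference was 1.08. Extl1 was still called there (limma adjusted p = 0.0241). With slide as a block, where outer replicate 1 alone is set against the intermediate arrays, the difference was 4.75. Extl1 went with the cartilage markers, which were higher on every outer array, and the part of cartilage cells in it was not tested.

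The chain polymerases and the other exostosin-like genes did not pass. Ext1 and Ext2, which together form the heparan sulfate polymerase, differed by -0.21 and -0.21, with 95% intervals of -0.64 to 0.21 and -0.83 to 0.41. Extl2 and Extl3, of which Extl3 starts the heparan chain, differed by -0.12 (-0.81 to 0.56) and 0.11 (-0.45 to 0.68). Extl1 was thus the only 1 of the 5 exostosin family genes called.

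Ndst1 and Ndst2 encode enzymes that replace acetyl groups with sulfate, the step that opens the chain to further modification. Ndst1 stood at 1.07, 1.10 and 1.20 on the intermediate and 0.13, 1.07 and 0.89 on the outer arrays. The low value was that of outer replicate 1, the dimmest array, and the difference was -0.43 (limma adjusted p = 0.4015), or -0.14 without that array. Ndst2 stood at 1.30, 1.39 and 1.42 against 1.71, 1.68 and 1.46. Its groups do not overlap, but the difference of 0.25 did not pass (95% interval -0.14 to 0.63, limma adjusted p = 0.428).

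Glce, the epimerase that converts glucuronic to iduronic acid, differed by 0.29 (95% interval -0.17 to 0.74), and Hs2st1, the uronyl 2-O-sulfotransferase, by 0.27 (-0.17 to 0.71). The 6-O-sulfotransferases leaned apart. Hs6st2 stood at -1.13, 0.58 and -0.25 on the intermediate and 1.24, 1.39 and 1.01 on the outer arrays. All outer arrays were above all intermediate arrays, which spread widely among themselves.

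The difference of Hs6st2 was 1.48 with SE 0.41 and did not pass (95% interval 0.51 to 2.45, limma adjusted p = 0.104). It passed without intermediate replicate 2, at 1.91 (limma adjusted p = 0.0488). With both replicate and slide as blocks, a fit that rests on the replicate 1 pair alone, the difference of Hs6st2 was 2.37. Hs6st1 stood at -0.96, -1.24 and -1.03 on the intermediate and -1.27, -1.67 and -2.07 on the outer arrays. The groups touch without overlapping, and the difference was -0.59 (SE 0.24, limma adjusted p = 0.2145). Hs3st1, a 3-O-sulfotransferase, was well above background on 2 arrays of each group and was not tested.

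Sulf1 and Sulf2 encode the extracellular sulfatases that remove 6-O-sulfate from finished heparan chains. Sulf1 stood at 5.33, 6.48 and 5.17 on the intermediate and 5.52, 6.19 and 5.62 on the outer arrays. Replicate 2 was the highest of each group, and the difference was 0.12, with the widest interval of the 13 tested heparan genes after Extl1 and Hs6st2 (-0.78 to 1.01, limma adjusted p = 0.888). Sulf2 stood at 5.42, 5.75 and 5.23 against 4.82, 5.31 and 4.82. Its difference was -0.48 (95% interval -1.01 to 0.05, limma adjusted p = 0.274), and outer replicate 2 reached into the intermediate range.

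Among the 9 supply genes, all tested, 8 had a difference above the median of all genes. Above 0 were 8, or 4 on values scaled to each array's median. Of the 9, 4 had an unadjusted limma p under 0.05 (21.1% of all genes), and 1 passed (4.05% of all genes). Of all 18003 genes, 10811 had a difference above 0 and 9001 lay above their own median. The counts of these 9 genes were not tested against those shares. Papss2 encodes an enzyme that makes PAPS from sulfate and ATP, and its loss causes a skeletal dysplasia. It stood at 3.999, 3.67 and 3.78 on the intermediate and 5.07, 5.05 and 4.599 on the outer arrays. The groups do not overlap, and the lowest outer array was above the highest intermediate array.

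The outer mean of Papss2 was 4.91 ± 0.27 (SD, n = 3) and the intermediate mean 3.82 ± 0.17, a difference of 1.09 with SE 0.20. Papss2 was thus 2.13-fold higher in the outer layer, at a limma adjusted p of 0.0363. The call is the weakest of the 3. It ended without any 1 of the 6 arrays (differences of 1.01 to 1.24) and on values scaled to each array's median (0.70, limma adjusted p = 0.149). With slide as a block and within the shared slide, which again rest on outer replicate 1 alone, the difference was 1.26 (limma adjusted p = 0.0515 and 0.0509). The higher Papss2 signal went with that of the cartilage markers, and the part of cartilage cells in it was not tested.

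Papss1, the other PAPS synthase gene, stood at 2.42, 2.55 and 2.43 on the intermediate and 2.78, 3.03 and 2.79 on the outer arrays. The groups do not overlap, and the difference of 0.40 did not pass (95% interval 0.01 to 0.78, limma adjusted p = 0.223). Slc35b2 carries PAPS into the Golgi and differed by 0.13 (-0.42 to 0.68). Impad1, now named Bpnt2, encodes the Golgi phosphatase that clears the by-product of sulfation, and differed by 0.24 (-0.49 to 0.97).

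Slc26a2 encodes the sulfate transporter of chondrocytes whose defects cause diastrophic dysplasia. It stood at -1.85, -1.18 and -0.76 on the intermediate and -2.83, -0.87 and -0.70 on the outer arrays, where the outer replicate 1 value was not well above background. The difference of -0.20 (limma adjusted p = 0.874) had the widest interval of the 40 tested members, -1.59 to 1.19, and it turned to 0.48 without outer replicate 1.

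The sugar nucleotide genes showed 2 differences that missed the threshold. Ugdh, which makes UDP-glucuronic acid, stood at 4.43, 4.51 and 4.54 on the intermediate and 4.84, 5.13 and 5.13 on the outer arrays. The groups do not overlap, and the difference was 0.54 (95% interval 0.14 to 0.93, limma adjusted p = 0.132). Slc35d1, which carries UDP-glucuronic acid and UDP-N-acetylgalactosamine into the endoplasmic reticulum and is required for cartilage, stood at -0.05, -0.33 and 0.62 against 1.04, 0.67 and 1.33. The lowest outer array lay just above the highest intermediate array, and the difference was 0.93 (SE 0.30, limma adjusted p = 0.141).

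In the fit blocked on replicate, Slc35d1 was called (0.93, limma adjusted p = 0.0361). It was then the fourth member called, beside Extl1, Papss2 and Chst7. Ugp2, which makes UDP-glucose, and Uxs1, which makes UDP-xylose, differed by 0.25 and 0.13, with intervals within -1 to 1.

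**Figure D3:**
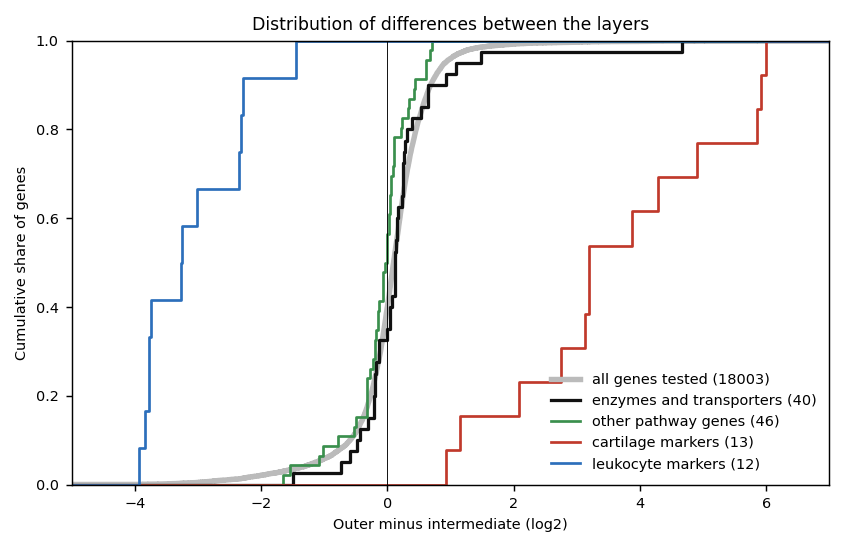
Cumulative share of genes by the difference in log2 signal, outer minus intermediate, for all 18003 genes tested, the 40 members, 46 other genes of the pathway, 13 cartilage markers and 12 leukocyte markers. The members follow all genes, with medians of 0.13 and 0.10, and the marker lists lie to either side with medians of 3.19 and -3.26.

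Enzymes of the same family or step were also set against each other within each array, since a constant subtracted from an array cancels in such a ratio. Quantile normalization and normexp are not of that kind and can change the ratios. The 12 pairs were chosen after their values were seen. The groups did not overlap for 5 of the 12 ratios, which is a description of chosen pairs. The exact two-sided permutation test over 3 against 3 arrays gave 0.1 for each of these 5, the smallest value it can give, and 0.24 adjusted over the 12 pairs, so no ratio can pass.

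The log2 ratio of Chst7 to Chst3 was -0.81, -1.21 and -0.84 on the intermediate and -2.67, -2.62 and -2.98 on the outer arrays, a shift of -1.80 between the means of the 6-O-sulfotransferase pair. The ratio of Papss2 to Papss1 was 1.57, 1.12 and 1.35 against 2.30, 2.02 and 1.81, a shift of 0.69. This ratio was higher on every outer array than on any intermediate array, with 3 arrays in each group.

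The ratio of Hs6st2 to Hs6st1 was -0.18, 1.82 and 0.78 on the intermediate and 2.50, 3.06 and 3.08 on the outer arrays, the widest shift at 2.07. Chst11 to Chst12 shifted by 0.65 and Ndst1 to Ndst2 by -0.67, and the latter rests in part on outer replicate 1, at -1.58 against -0.61 and -0.57 on the other outer arrays. For the remaining 7 pairs the groups overlapped. Between arrays of the same replicate number, 5 of these 7 ratios moved one way in all 3 comparisons. The 5 ratios that do not overlap must do so, since all their outer values lie on one side of all intermediate values. Sulf1 to Sulf2 moved by 0.79, 0.14 and 0.86 for replicates 1, 2 and 3, Csgalnact1 to Csgalnact2 by -0.43, -0.37 and -0.28, and Extl2 to Extl3 by -0.37, -0.23 and -0.12. The ratio of Ext1 to Ext2 had nearly equal means, 4.69 ± 0.10 (SD, n = 3) on intermediate and 4.68 ± 0.61 on outer arrays. The values were 4.72, 4.77 and 4.57 against 5.36, 4.53 and 4.16, so the equal means rest on outer replicate 1. On that array Ext2, at -2.65, lay below the dimmest probe well above background (-1.81).

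**Figure D4:**
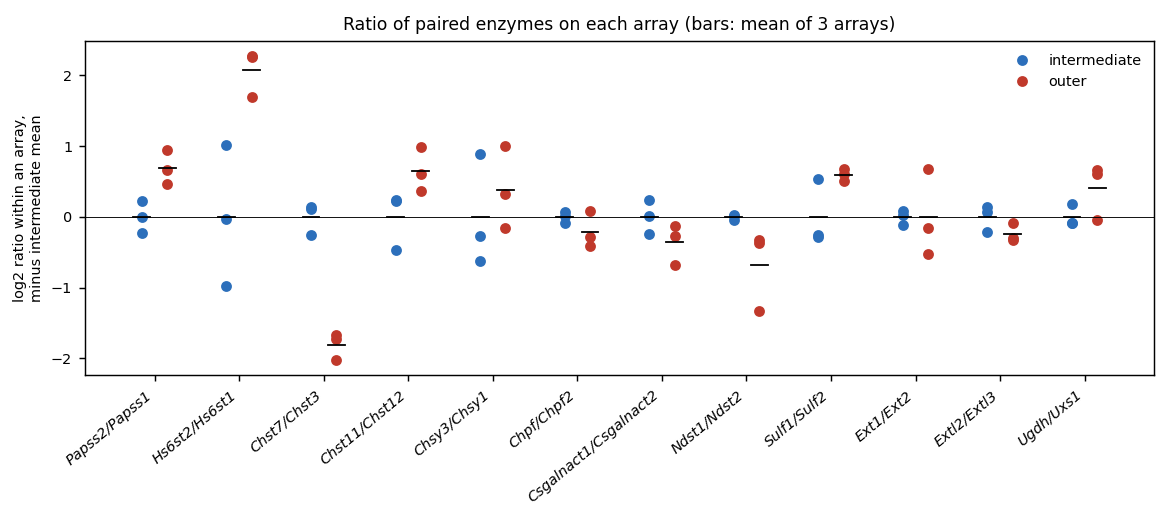
Log2 ratio of 12 pairs of related enzymes on each array, with the intermediate mean of the pair set to 0 and bars at the mean of 3 arrays. The ratios of Chst7 to Chst3 and of Hs6st2 to Hs6st1 moved in opposite directions, by -1.80 and 2.07, and those of Ext1 to Ext2 overlap.

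Where a member had several probes, the probes were compared in a fit over all 23884 tested probes. Of 13 members with several probes, 8 had more than 1 tested, and in 4 of these the differences had opposite signs, with none of their probes called. The 3 probes of Chpf2 differed by 0.04, -0.38 and 0.79 (limma adjusted p = 0.934, 0.3 and 0.108). Of these, only the first, which stands for the gene, had groups that overlap. The Xylt2 probes differed by 0.16 and -0.14, those of Sulf1 by 0.12 and -0.10, and those of Ndst1 by -0.43, -0.56 and 0.20. Chst7, Extl1 and Papss2 each have 1 probe, so no further probe of theirs bears on their calls.

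A list of 61 other genes of glycosaminoglycan metabolism was also counted, on keratan sulfate, hyaluronan, breakdown in lysosomes, further sulfotransferases and precursor supply. Of the 46 tested, limma called 0, and 9 had an unadjusted p under 0.05, 2 of them towards the outer and 7 towards the intermediate layer. Over all genes 21.1% had an unadjusted limma p under 0.05. The median difference of the 46 was -0.02, and 33 had a 95% interval within -1 to 1, against 60.4% of all genes. Of the 16 tested genes of lysosomal breakdown, 2 had an unadjusted p under 0.05, and the differences ranged from -0.53 to 0.68.

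The 6 tested genes of keratan sulfate, the other sulfated chain of aggrecan, had the lowest median of these groups with more than 2 tested genes, at -0.90. Of the 6, the sulfotransferase genes Chst1, Chst2 and Chst5 and the chain-extending B3gnt2 lay between -1.53 and -0.77 with groups that do not overlap, and the galactosyltransferase genes B4galt1 and B4galt4 stood at 0.42 and 0.00099 with groups that do. The leukocyte and endothelial summed levels were lower on every outer array here too, and their part was not tested. The 2 genes given in full were chosen after their values were seen. Chst1, the galactose 6-O-sulfotransferase of keratan sulfate, stood at 2.14, 2.85 and 2.92 on the intermediate and 0.57, 1.61 and 1.14 on the outer arrays. The groups do not overlap, and the difference of -1.53 just missed the threshold (limma adjusted p = 0.0531). It was called in the fit blocked on replicate (-1.53, limma adjusted p = 0.0272), as was Chst5, an N-acetylglucosamine 6-O-sulfotransferase (-1.02, limma adjusted p = 0.0381, and 0.0774 without the block). Both were also called on values scaled to each array's median (-1.93 and -1.41, limma adjusted p = 0.0228 and 0.0413). So were Chst2 and, from the heparan sulfate genes of this list, Ndst3 (-1.17 and -2.05, limma adjusted p = 0.0469 and 0.0289). Ndst3 was well above background on 0 outer arrays.

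Directions near 0 depend on the scaling, and all intervals given above are those of the main scaling. On values scaled to each array's median the median of all genes moved from 0.10 to -0.29, and the members with a difference above 0 went from 26 to 8 of 40. Against the median of all genes, 23 of the 40 members lay above it. Both scalings subtract a constant from each array, so this count cannot differ between them. Extl1 and Chst7 were called in both scalings, and Papss2 kept its direction but not its call.

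**Figure D5:**
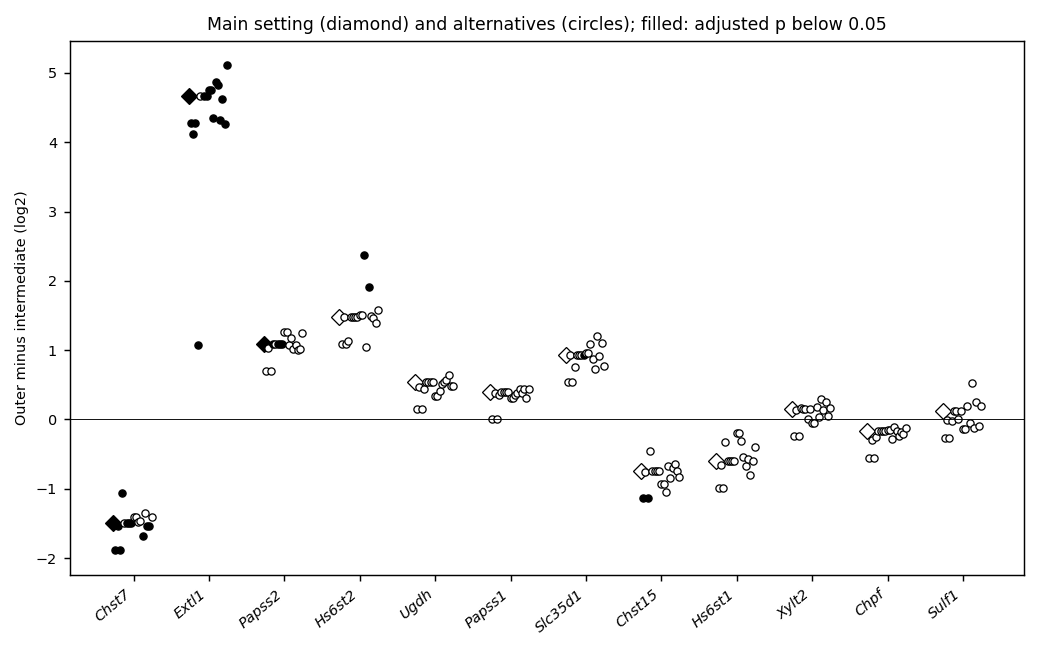
Difference in log2 signal, outer minus intermediate, of 12 members in the main setting (diamond) and in up to 17 alternatives (circles), filled where the limma adjusted p was below 0.05. Extl1, Papss2, Hs6st2, Ugdh, Papss1 and Slc35d1 stayed above 0 and Chst7, Chst15, Hs6st1 and Chpf below 0 in all of these, and Sulf1 and Xylt2 crossed it.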

How the data were processed

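Feature Extraction 10.7.3.1 gave, per the file headers, a background-subtracted intensity for each spot of the deposited scanner files (mm9). Partek 6.11.0321 appears in the submitters' processing notes. The authors' deposited table holds the same intensity divided by the median of its array. Here log2 of the processed signal was taken and each array's 75th percentile subtracted. Outlier spots among the 59305 non-control spots were dropped and spots of a probe averaged. A probe entered the test if all 3 arrays of either group had it well above background, judged by at least 50% of its spots, and a gene was read from its brightest such probe (18003 genes). RefSeq accessions of 26762 of 28390 probes were found in the GRCm38.p6 table, which served for names only. The layers were compared by limma 3.58.1 (R 4.3.3, lmFit with eBayes, two-sided p), Benjamini-Hochberg adjusted over the 18003 genes with calls below 0.05. The scripts were tested on simulated data. With 3 arrays per group, their number limits the precision.

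Members, lists and tests were chosen with earlier results of these data known. Every member may be named. Array values are given for called members, those differing by at least 1, the brightest of each step, and others chosen after their values were seen. Replicate numbers come from the labels. Same-numbered samples deviated together, with correlations over genes of 0.563, 0.480 and 0.372 after subtracting group means and at most 0.114 between numbers. The numbers were thus taken as a possible pairing, and a replicate block was tried. Values given without mention of a block, with their SEs, intervals and p-values, ignore this pairing. With the block the SE went from 0.48 to 0.20 for Extl1, from 0.20 to 0.16 for Papss2 and from 0.22 to 0.20 for Chst7. On slide 1 were all intermediate arrays with outer replicate 1, and on slide 2 outer replicates 2 and 3. The alternatives were other scalings, filters, probe choices, blocks and leaving out each array.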

Additional observations from a re-analysis of the deposited data

How the results depend on the processing

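Of 17 alternatives, the number of members called (3) became 0 without a filter on dim probes (7 at an unadjusted limma p under 0.05), 1 with slide as a block and 1 within slide 1, and 1 to 3 when each array was left out. The calls over all genes (729) became 1095 scaled to the median and with the authors' deposited values (158 and 937 towards the outer and the intermediate layer), 451 with quantile normalization, 0 without a filter (4268 at unadjusted p under 0.05), 460 with signal on all 6 arrays, 1636 with the replicate block, 1215 with slide as a block, 1314 within slide 1, and 66 to 1111 leaving out arrays. The calls among other pathway genes (0) became 4 scaled to the median and with the authors' values, 2 with normexp, 1 with signal on all 6 arrays, 2 with the replicate block, 2 with slide as a block, 2 within slide 1, and 0 to 2 leaving out arrays. Chst7 lost its call without a filter (-1.50), with slide as a block and within slide 1 (-1.40 in both) and with both blocks (-1.47), and ranged from -1.68 to -1.35 leaving out arrays. Extl1 lost its call without a filter (4.67) and ranged from 4.27 to 5.12. It could not be fitted with signal required on all 6 arrays, nor could Ext2 and Slc26a2. Papss2 lost its call scaled to the median and with the authors' values (0.70 in both), with quantile normalization (1.04), without a filter (1.09), with slide as a block and within slide 1 (1.26 in both) and with both blocks (1.07), and ranged from 1.01 to 1.24 leaving out arrays. Uncalled Xylt2 turned to -0.23 scaled to the median and with the authors' values and -0.045 with slide as a block and within slide 1. Uncalled Sulf1 turned to -0.27 scaled to the median and with the authors' values, -0.0053 with quantile normalization, -0.0149 with normexp, and -0.14 with slide as a block and within slide 1, and ranged from -0.13 to 0.53 leaving out arrays. The replicate block changed no other call of a member than that of Slc35d1. The cause of these changes was not tested. Slide as a block and slide 1 alone have a single outer array, replicate 1, assumed to vary like the others, and both blocks together rest on the replicate 1 pair, so these p-values say little about stability. That array is the dimmest, and dim signal limits Xylt1, Chst13 and Hs3st1.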
